A study of Mus musculus with 11 samples.

Results

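DBP, TEF, HLF and NFIL3 are transcription factors that bind 1 DNA motif, the D-box, and the 4 genes that encode them (Dbp, Tef, Hlf and Nfil3) are described here in corpus callosum and in neurospheres with and without an intact Bmal1 gene. The genes were taken by symbol, and all 4 were found among the 24411 gene symbols of the count files and passed the filter on low counts in every comparison. RNA was sequenced from 11 mouse libraries in 4 groups: wild-type corpus callosum (3 libraries), corpus callosum of Bmal1-/- mice (2), neurospheres of wild-type mice (3) and neurospheres of Bmal1-/- mice (3). The mice were 8 to 10 weeks old, and callosum, the tract of myelinated axons between the hemispheres, was dissected from them directly. Neurospheres are free-floating balls of neural stem cells and their progeny, here cultured from the subventricular zone for 1 week with EGF at 20 ng/ml and heparin at 2 ug/ml. The labels do not give the deleted part of Bmal1, the strain, the sex, the time of day of collection, or whether each library had its own animal or culture. The p-values therefore measure library-to-library spread only, and that spread may be technical.

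DBP, TEF and HLF form the PAR bZIP family (proline and acidic amino acid-rich basic leucine zipper factors), and they activate genes through D-boxes. NFIL3, also called E4BP4, is a basic leucine zipper factor outside that family that represses through the same motif, so the activators and the repressor compete. In the clock, BMAL1 with CLOCK or NPAS2 drives Dbp, and to a smaller degree Tef and Hlf, through E-boxes. Nfil3 lies under the REV-ERB and ROR nuclear receptors, which bind RRE motifs, and REV-ERB genes are themselves E-box targets. In brain and liver, DBP peaks at about the opposite time of day to NFIL3.

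The stretches of the 4 genes' promoters that match these clock motifs are shown, and only Tef and Nfil3 held such a match. Each promoter is the RefSeq sequence from 250 bases before to 50 bases after a transcript start (GRCm38.p6, the assembly of mm10), and both strands were searched. Hlf (chromosome 11, 90336535 to 90390917, minus strand) and Dbp (chromosome 7, 45705100 to 45710203, plus strand) have 1 such promoter each, with no match to any motif searched. The Dbp promoter spans 45704997 to 45705296, so its transcript start lies inside the gene's bounds. Bases outside these promoters were not searched, so motifs may lie elsewhere in either gene. Tef (chromosome 15, 81802673 to 81826863, plus strand) has 2 promoters, and both hold the E-box CACGTG, 127 to 122 and 138 to 133 bases before the start. This E-box occurs in 7.15% of the 32851 promoters of the table. Nfil3 (chromosome 13, 52967209 to 52982878, minus strand) has 1 promoter, with a match to the RRE core (TAGGTCA or TGGGTCA, found in 6.45% of promoters) 12 to 6 bases before its transcript start at 52981039, which lies inside the gene's bounds, on the opposite strand. The D-box (TTATGTAA or TTACGTAA, in 1.06% of promoters) and the E-box variant CACGTT (4.68%) were found in none of the 5 promoters. In the windows below, read 5′ to 3′ on the gene's strand, capitals mark the match. The Tef windows lie at chr15:81802534-81802563, in a Tef exon of GENCODE M21, and at chr15:81811264-81811293, in a Tef intron, and the Nfil3 window at chr13:52981040-52981063 in an Nfil3 exon.
Tef promoter 1: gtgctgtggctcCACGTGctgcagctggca
Tef promoter 2: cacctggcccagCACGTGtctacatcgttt
Nfil3 promoter: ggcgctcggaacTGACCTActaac

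Gene counts summed to 17513165 to 17836955 per callosum library and 17450270 to 19717848 per neurosphere library. Arntl, the symbol under which Bmal1 is listed, stood at 26.8 to 32.2 CPM (counts scaled to a common library total) in wild-type callosum and at 26.9 and 33.4 CPM in the Bmal1-/- callosum, and at 45.0 to 57.7 and 48.0 to 57.1 CPM in the neurospheres. The labelled genotype is therefore not checked by this count, since a whole-gene total can hide a deletion of part of the gene. The callosum held myelin genes (10 markers summed to 22464 to 35070 CPM) and the neurospheres neural stem and progenitor genes (8 markers summed to 4024 to 5634 CPM, against 322 to 471 CPM in callosum), as their labels say. Neuron markers summed to 6898 to 9104 CPM in callosum, so the tissue held neuronal RNA. The Bmal1-/- neurosphere replicate 1 stood apart, with 22.6% of reads unmapped against 13.7% to 16.2% in the other neurosphere libraries, and neurosphere values of the members are given with and without it. In such bulk RNA, fewer cells that express a gene and less of its RNA per cell cannot be told apart.

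In the callosum, Dbp fell and Nfil3 rose in the Bmal1-/- libraries, while the lower values of Tef and Hlf did not pass the test. Dbp, a PAR bZIP gene known for a strong daily rhythm, read 94.3, 88.2 and 106 CPM with Bmal1 intact, and only 12.6 and 13.6 CPM in the Bmal1-/- pair of libraries. The groups lay far apart, and the spread within each was small. It fell 7.31-fold, a log2 fold change of -2.87 ± 0.13 (SE, 95% confidence interval -3.16 to -2.58, edgeR adjusted p = 4.91e-05), the smallest p of the 14198 genes tested. Of the 4 members, 2 were called at an adjusted p under 0.05, against 0.909% of all genes tested: 1 lower (0.387% of all genes) and 1 higher (0.521%).

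Dbp shares 539 exon bases, 18.0% of its exons, with Sphk2, a sphingosine kinase gene on the opposite strand, so the reads of both were examined. The count that ignores strand leaves out reads there, and the 2 stranded counts place them. Summing those 2 added the same number of reads to Dbp as to Sphk2 in all 11 libraries. The libraries do not keep strand (49.6% to 50.8% of counts on the first), so which gene each shared read came from cannot be told apart. These shared reads numbered 950, 874 and 836 in wild-type callosum and 188 and 158 in Bmal1-/- callosum. At 49.6 ± 3.53 CPM (SD, n = 3) against 10.0 ± 1.34 CPM (SD, n = 2), they were 4.96-fold lower. Sphk2 reads outside the overlap went the other way, at 105, 94.1 and 99.4 CPM against 123 and 127 CPM, with no overlap of the groups. That value, a log2 fold change of 0.33 ± 0.10 (SE), did not pass (edgeR adjusted p = 0.201). The shared reads thus moved with Dbp and not with the rest of Sphk2. With these reads added to Dbp its log2 fold change was -2.66 (edgeR adjusted p = 3.18e-05).

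**Figure D1:**
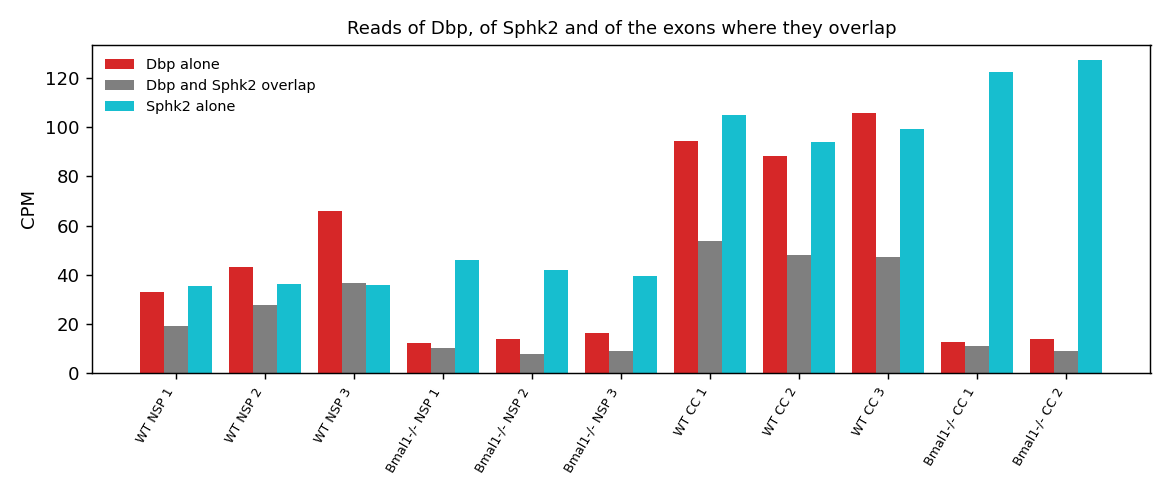
Reads in CPM (TMM scaling within each RNA source) that fall in Dbp alone, in the exons that Dbp and Sphk2 share, and in Sphk2 alone, for each of the 11 libraries (WT, wild type; CC, corpus callosum; NSP, neurospheres). The red and grey bars are low in every Bmal1-/- library, down to 12.01 and 7.75 CPM, while the Sphk2 bars of those libraries are not.

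Nfil3, the repressor of the set, stood at 7.11, 8.07 and 9.80 CPM in wild-type callosum and at 20.9 and 21.6 CPM in Bmal1-/- callosum. The Bmal1-/- libraries lay close to each other and more than 2-fold above the highest wild-type library. It rose 2.55-fold (log2 fold change 1.35 ± 0.16, SE, 95% confidence interval 0.99 to 1.71, edgeR adjusted p = 0.00593). The level rests on 126 to 174 counts in the wild-type and 359 and 377 counts in the Bmal1-/- libraries. With 1 of the 5 libraries left out the adjusted p was 0.0161 to 0.0375 (edgeR), though leaving out a Bmal1-/- library leaves 1, which is then assumed to vary like the wild type. The call ended in a single model of all 11 libraries (log2 fold change 1.34, adjusted p = 0.448), in which the spread is shared with neurospheres.

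Tef, the thyrotroph embryonic factor, stood at 517, 464 and 445 CPM in wild-type callosum and at 348 and 292 CPM in Bmal1-/- callosum. All Bmal1-/- values lay below all wild-type values, a log2 fold change of -0.57 ± 0.12 (SE, 95% confidence interval -0.84 to -0.30), and the gene did not pass (edgeR adjusted p = 0.0766). It passed with DESeq2 (adjusted p = 0.00319), with scaling to library size alone (0.0471) and with no filter (0.0364). Hlf, hepatic leukemia factor, stood at 260, 176 and 183 CPM against 155 and 139 CPM. Here too the groups did not overlap, with the first wild-type library well above the others. Callosum groups were also apart for other genes that were not called, such as the clock gene Cry2. The share of all genes with groups apart was not counted, so lack of overlap alone says little. The log2 fold change was -0.49 ± 0.17 (SE, 95% confidence interval -0.88 to -0.09, edgeR adjusted p = 0.273), and it was -0.28 without wild-type replicate 1. The intervals of Tef and Hlf do not reach that of Dbp.

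Markers of other cells whose summed level differed beside these values were astrocyte genes (9 markers, Gfap among them, 3013 to 3264 CPM in wild type, 4538 and 4896 CPM in Bmal1-/-) and striatal neuron genes (9 markers, 951, 3112 and 1717 CPM in wild type, 856 and 1119 CPM in Bmal1-/-). No marker of either list was at 0 in a callosum group. Of the astrocyte markers 1 rose, 1 fell and 7 did not pass. With 5 of these 9 above 0 and a median log2 fold change of 0.05, the astrocyte list did not rise as a whole. Of the striatal markers none of 9 passed, at an adjusted or an unadjusted p under 0.05. None of these 9 striatal markers had a log2 fold change above 0, though, and their median was -1.28 against -0.01 over all genes tested. Choroid plexus genes (5 markers) summed to 22.9, 46.8 and 183 CPM in wild type and to 14.1 and 10.4 CPM in Bmal1-/-. The part of astrocyte or choroid plexus RNA in these differences was not tested. With the striatal level as a covariate Dbp stood at -2.91 and Nfil3 at 1.43 on the log2 scale, Tef at -0.68 (edgeR adjusted p = 0.0594), and Hlf passed at -0.76 (adjusted p = 0.0456).

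**Figure D2:**
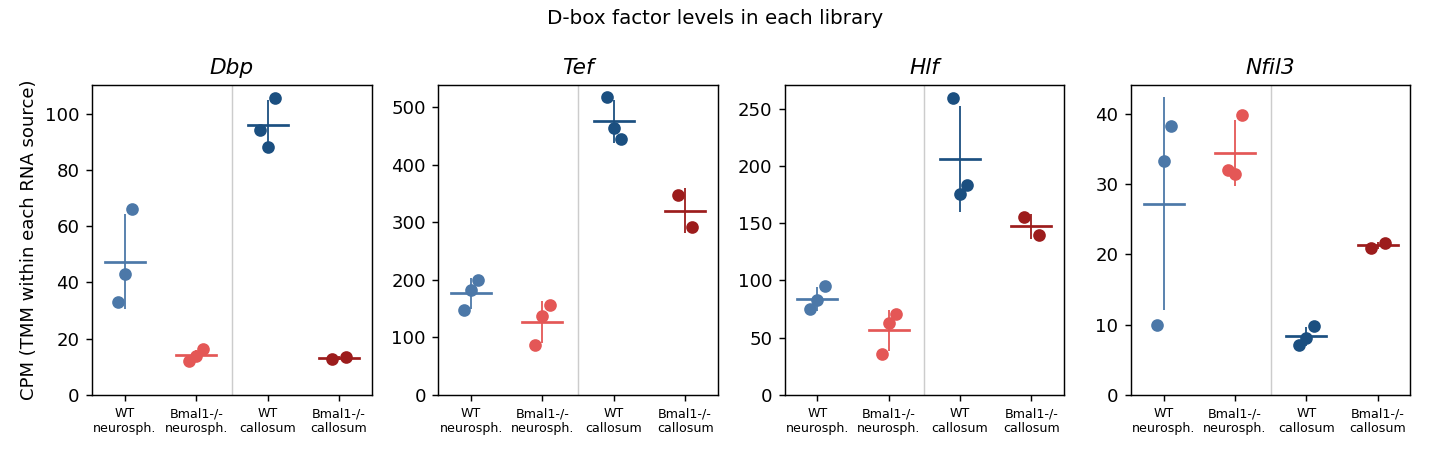
CPM of each D-box factor gene (TMM scaling within each RNA source, so neurosphere and callosum levels are not on 1 scale) in every library; lines are group means and vertical bars the SD. Dbp is low in both Bmal1-/- groups, and Nfil3 has 1 wild-type neurosphere library at 9.98 CPM far below the other 2.

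In neurospheres, no member passed, against 1 gene called of 13968 tested (0.00716%), and 1 of the 4 (Dbp) had an unadjusted p under 0.05, as had 3.02% of all genes tested. Wild-type neurospheres held Dbp at 33.0, 43.1 and 66.1 CPM, and the Bmal1-/- ones at 12.01, 13.9 and 16.2 CPM. The groups did not overlap, though the wild-type libraries spread 2.00-fold. Its log2 fold change was -1.76 ± 0.28 (SE, 95% confidence interval -2.40 to -1.11, edgeR unadjusted p = 0.00025, adjusted p = 0.218), and it ranked 16th by p. Without Bmal1-/- replicate 1 it was -1.66. DESeq2 (adjusted p = 8.72e-06) and the single model of 11 libraries (adjusted p = 0.00934) did call Dbp lower. The reads shared with Sphk2 numbered 362, 518 and 695 in wild-type and 193, 150 and 169 in Bmal1-/- neurospheres, 3.13-fold lower in CPM, while Sphk2 alone stood at 35.3 to 36.1 against 39.5 to 46.0 CPM.

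Tef stood at 147, 183 and 200 CPM in wild-type neurospheres and at 86.3, 137 and 156 CPM in Bmal1-/- ones, so that the groups overlapped. Its log2 fold change of -0.48 ± 0.25 (SE, 95% confidence interval -1.05 to 0.09, edgeR adjusted p = 0.798) became -0.27 without Bmal1-/- replicate 1, the lowest library. Hlf stood at 74.5, 82.4 and 95.3 CPM against 35.9, 62.4 and 70.5 CPM, with no overlap. Its log2 fold change of -0.58 ± 0.26 (SE, 95% confidence interval -1.17 to 0.02, edgeR adjusted p = 0.798) became -0.34 without that same library. Tef and Hlf were thus lowest in the library that stood apart, as was Dbp (12.01 CPM against 13.9 and 16.2 CPM in the other Bmal1-/- neurospheres). That library also had the lowest neuron (433 CPM against 727 and 750 CPM) and astrocyte (4752 against 5883 and 5969 CPM) marker sums of its group and the highest microglia sum (136 against 65.5 and 40.4 CPM). Pericyte and smooth muscle markers summed to 35.4 to 49.4 CPM in all Bmal1-/- neurospheres and 18.8 to 22.4 CPM in wild type. This higher sum was not shared by the whole list. Only 2 of its 4 tested markers went up, with a median of 0.22 on the log2 scale. None was called by edgeR, though 2 stood at an unadjusted p under 0.05. The part of the cells marked by these lists in the members' values was not tested.

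Nfil3 stood at 9.98, 33.3 and 38.3 CPM in wild-type neurospheres and at 32.0, 31.3 and 39.7 CPM in Bmal1-/- ones. Wild-type replicate 1 was far below the rest, and the other 2 wild-type libraries lay among the Bmal1-/- values. The log2 fold change was 0.34 ± 0.43 (SE, 95% confidence interval -0.66 to 1.33, edgeR adjusted p = 0.814), and it was -0.056 without wild-type replicate 1 and 0.39 without Bmal1-/- replicate 1. That library was also the lowest of the wild type in the clock genes Per1 (139 CPM against 236 and 267 CPM), Nr1d1 (129 against 247 and 288 CPM) and Ciart (6.85 against 18.0 and 19.8 CPM). It had the highest stem and progenitor level (5400 against 4147 and 4024 CPM) and the lowest oligodendrocyte precursor level of the wild type (154 against 316 and 418 CPM), whose part in the Nfil3 value was not tested. Bmal1-/- replicate 1 was alike within its own group in stem and progenitor (5634 against 5108 and 4724 CPM) and precursor levels (148 against 318 and 325 CPM). Its Per1 was also the lowest there (86.6 against 150 and 156 CPM), but its Nfil3, at 32.0 CPM, was not.

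**Figure D3:**
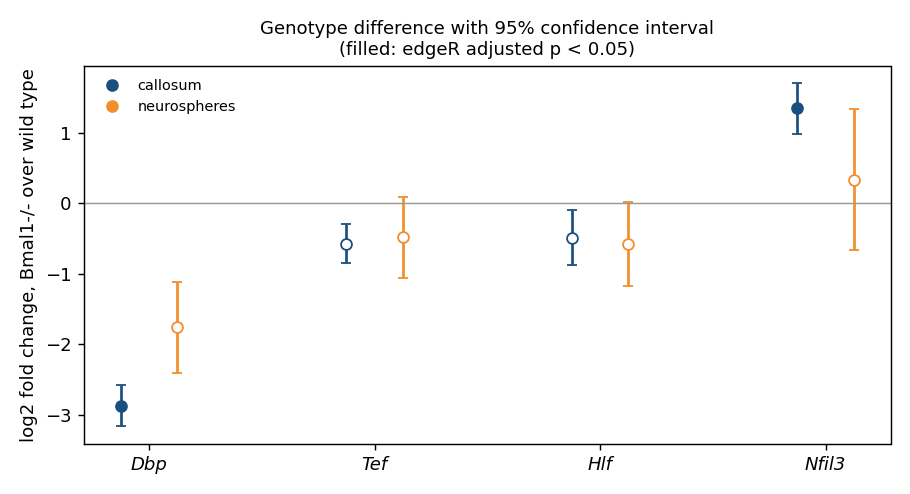
Log2 fold change of each D-box factor gene, Bmal1-/- over wild type, with its 95% confidence interval from the edgeR fit of each RNA source; filled points have an adjusted p under 0.05. Only Dbp (-2.87) and Nfil3 (1.35) in the callosum are filled, and the neurosphere interval of Nfil3 spans -0.66 to 1.33.

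Whether the members respond differently to the genotype in the 2 sources was tested as an interaction in 1 model of the 11 libraries, in which 0.0131% of 15322 genes were called and none of the 4 members. The difference for Dbp, callosum minus neurosphere, was -1.13 ± 0.35 (SE, 95% confidence interval -1.88 to -0.38, edgeR unadjusted p = 0.0067, adjusted p = 0.877) on the log2 scale. For Nfil3 it was 1.00 ± 0.55 (SE, 95% confidence interval -0.19 to 2.19, edgeR adjusted p = 0.999). The differences for Tef, -0.11 (95% confidence interval -0.78 to 0.57), and Hlf, 0.08 (-0.69 to 0.85), lay near 0 and changed sign when single libraries were left out. With DESeq2 the adjusted p for Dbp was 0.395.

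Between wild-type sources all 4 members differed, as did 85.8% of the 14733 genes tested (42% higher and 43.8% lower in callosum). On CPM scaled over all 11 libraries, Tef stood at 585 ± 46.9 CPM (SD, n = 3) in callosum and 149 ± 23.0 CPM (SD, n = 3) in neurospheres, 3.96-fold higher in callosum (log2 1.98 ± 0.14, SE, edgeR adjusted p = 5.9e-07). Hlf was 3.60-fold higher in callosum (log2 1.85 ± 0.17, SE, edgeR adjusted p = 4.54e-06) and Dbp 2.98-fold (log2 1.57 ± 0.22, SE, edgeR adjusted p = 0.000107). Larger changes than these were seen in 41.2% (Tef), 44.0% (Hlf) and 50.5% (Dbp) of all genes tested. Nfil3 was 2.22-fold lower in callosum (log2 -1.15 ± 0.42, SE, edgeR adjusted p = 0.0262), and 62.2% of all genes changed more. The activators and the repressor lay in opposite directions, but both directions were common over all genes, so this is not particular to the members. This call of Nfil3 ended without wild-type neurosphere replicate 2 (adjusted p = 0.0705), neurosphere replicate 3 (0.0874), callosum replicate 1 (0.086) or callosum replicate 2 (0.0764). Scaling to library size alone moved the median of all genes from -0.06 to -0.57, and the members kept their directions there, with Dbp at 1.07, Tef at 1.48, Hlf at 1.34 and Nfil3 at -1.65 before that shift is taken off. Tissue and culture differ together between the sources and cannot be told apart.

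Levels of the members were set against each other as CPM per kilobase of exon (exon lengths of 2993 bases for Dbp, 7867 for Tef, 6681 for Hlf and 2026 for Nfil3). The level of Dbp on this scale is a lower bound, since the reads shared with Sphk2 are left out. With all of these reads counted for Dbp, here and below, it is an upper bound, since some may come from Sphk2. In Bmal1-/- callosum Sphk2 alone stood at 123 and 127 CPM, against 12.6 and 13.6 CPM for Dbp alone. In wild-type callosum Tef led at 69.6 to 81.0 CPM per kilobase, Dbp (36.1 to 43.4) and Hlf (32.2 to 47.9) did not differ beyond their spread, and Nfil3 was lowest (4.32 to 5.95). In Bmal1-/- callosum the order was Tef (45.4 and 53.6 CPM per kilobase), Hlf (25.5 and 28.1), Nfil3 (12.5 and 13.0) and Dbp (5.11 and 5.57), with no overlap between neighbours. With the shared reads counted for Dbp, its level was 55.7 to 62.8 CPM per kilobase in wild-type callosum, above every Hlf value, and 9.27 and 9.54 in Bmal1-/- callosum, still the lowest of the 4.

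In wild-type neurospheres the levels per kilobase lay closer together, with Tef at 15.8 to 21.5, Dbp at 9.28 to 18.7, Nfil3 at 4.15 to 16.0 and Hlf at 9.40 to 12.1 CPM per kilobase, all neighbours overlapping. In Bmal1-/- neurospheres Nfil3 (13.1 to 16.6 CPM per kilobase) overlapped Tef (9.26 to 16.8) at the top, and Hlf (4.54 to 8.91) and Dbp (3.39 to 4.57) followed, with ranges that touch although Hlf was above Dbp within each library. Dbp was the lowest of the 4 in all 5 Bmal1-/- libraries and in none of the 6 wild-type ones. With the shared reads counted for Dbp it was lowest in 4 of the 5, since in Bmal1-/- neurosphere replicate 1 it stood at 6.24 CPM per kilobase, above Hlf. On that scale Dbp reached 14.7 to 29.0 CPM per kilobase in wild-type neurospheres, above Tef in 2 of 3 libraries, and 6.11 to 7.05 in Bmal1-/- ones.

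The ratio of Dbp to Nfil3 counts within a library, which no scaling between libraries changes, was 13.3, 10.9 and 10.8 in wild-type callosum and 0.604 and 0.631 in Bmal1-/- callosum. In neurospheres it was 3.30, 1.29 and 1.72 in wild type and 0.375, 0.443 and 0.407 in Bmal1-/-. With the reads shared with Sphk2 counted for Dbp, a choice added after seeing the data, the ratio was 15.6 to 20.8 and 1.05 and 1.13 in callosum, and 2.13 to 5.23 and 0.628 to 0.692 in neurospheres. Both ways of counting put each Bmal1-/- group below its wild type, but whether Dbp reads outnumbered Nfil3 reads in Bmal1-/- callosum depended on the shared reads. These ratios are a description with no test. The sum of the 3 activators per kilobase was 24.7 to 38.8 times Nfil3 in wild-type callosum and 5.87 and 6.95 times in Bmal1-/- callosum. In neurospheres it was 3.04 to 8.30 times in wild type and 1.29 to 2.03 times in Bmal1-/-. The activators together stayed above the repressor in every library, with Tef making up 59.4% and 61.7% of their sum in Bmal1-/- callosum against 47.5% to 51.4% in wild type. Dbp made up 23.2% to 29.6% of the sum in wild-type callosum and 5.89% and 7.28% in Bmal1-/- callosum, and 26.9% to 35.8% against 14.8% to 19.7% in neurospheres. With the shared reads counted for Dbp these shares were 32.1% to 37.8% against 10.5% and 11.6% in callosum, and 36.9% to 46.3% against 21.3% to 31.1% in neurospheres.

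**Figure D4:**
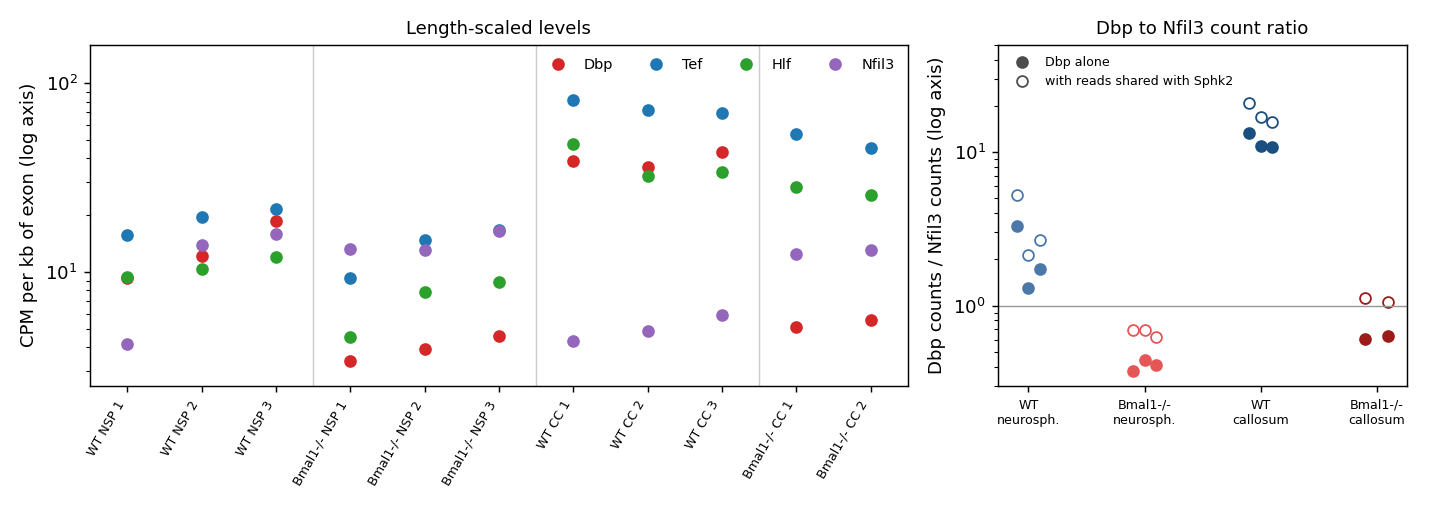
Left, CPM per kilobase of exon (log axis) of the 4 genes in every library, scaled over all 11 libraries (WT, wild type; CC, corpus callosum; NSP, neurospheres). Right, Dbp counts divided by Nfil3 counts (log axis, line at 1), filled without and open with the reads shared with Sphk2: filled Bmal1-/- points lie at 0.375 to 0.631, and the open ones of Bmal1-/- callosum lie just above 1, at 1.05 and 1.13.

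Genes of the clock that carry D-boxes were examined next, 9 in all and all tested. In the callosum 4 fell and 1 rose, against 0.387% and 0.521% of all genes tested. The median log2 fold change of the 9 was -0.62 against -0.01 over all genes tested. The genes that fell were Per3, a period gene (-2.23 ± 0.12, SE), Nr1d2 (-2.80 ± 0.25) and Nr1d1 (-0.93 ± 0.14), which encode REV-ERB beta and alpha, and the repressor gene Ciart (-2.47 ± 0.22). The cryptochrome gene Cry1 rose by 1.20 ± 0.16 on the log2 scale. As background, these genes are also targets of E-box or RRE factors. The other 4 did not pass, among them Per1 (-0.01, 95% confidence interval -0.34 to 0.32) and Per2 (0.21, -0.07 to 0.50). Rorb, which encodes an ROR receptor, stood at -0.62 (edgeR adjusted p = 0.251). The calls of Nr1d1 (edgeR adjusted p = 0.16) and Cry1 (0.118) ended without wild-type replicate 3, and that of Nr1d1 also without either Bmal1-/- replicate (0.17 and 0.0635). In the model of 11 libraries Nr1d1 (0.435) and Ciart (0.0609) did not pass.

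In neurospheres 1 of the 9, Nr1d2, fell (71.1 to 75.7 CPM in wild type, 3.51 to 4.96 CPM in Bmal1-/-, log2 fold change -4.11 ± 0.20, SE, edgeR adjusted p = 0.000403), and it was the 1 gene called in that comparison. The median of the 9 was -0.46 against -0.01 over all genes. Per3 (-2.43, edgeR adjusted p = 0.11) and Nr1d1 (-1.95, 0.218) did not pass. Both passed with DESeq2 (2.32e-10 and 1.08e-06) and in the model of 11 libraries (0.00222 and 0.00934), and Per3 also with no filter (0.0474) and with the replicate block (0.0246). Without Bmal1-/- replicate 1 the values were -3.99 for Nr1d2, -2.17 for Per3 and -1.85 for Nr1d1. Ciart stood at -0.42 (95% confidence interval -1.38 to 0.54), where its callosum value was -2.47. With 1 library left out the neurosphere value of Ciart ran from -0.77 (without wild-type replicate 1) to -0.16 (without wild-type replicate 3), and it was -0.20 without Bmal1-/- replicate 1. The difference of Ciart between sources did not pass (edgeR adjusted p = 0.782).

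Output genes of the PAR bZIP factors, known mostly from liver and brain, held no call in either source by edgeR. Of 12 on the list, 7 passed the filter on low counts in callosum and 5 in neurospheres, and medians were -0.18 and -0.33. Pdxk, which encodes the pyridoxal kinase that makes the active form of vitamin B6, stood at 257, 261 and 237 CPM in wild-type callosum and 226 and 219 CPM in Bmal1-/- callosum. These values did not overlap and did not pass (log2 fold change -0.18, 95% confidence interval -0.40 to 0.05, edgeR adjusted p = 0.45). In neurospheres Pdxk stood at 183 to 308 against 154 to 196 CPM. Por, the electron donor of cytochrome P450 enzymes, and Alas1, which begins heme synthesis, had callosum intervals of -0.29 to 0.14 and -0.17 to 0.30. Ppara, a nuclear receptor of fatty acid metabolism, stood at -0.68 (95% confidence interval -1.22 to -0.14, edgeR adjusted p = 0.264) on 41 to 97 counts a library. At an unadjusted p under 0.05 stood 2 of the 7 in callosum (Ppara and Nr1i3, the latter under 1 CPM and named after its value was seen) and none of the 5 in neurospheres, where 13.9% and 3.02% of all genes tested did. The intervals of Nr1i3 (-3.75 to -0.15), Abcb1a (-0.73 to 0.34) and Abcb1b (-0.94 to 0.66) were wider, and 6 of the 7 callosum values lay below 0.

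**Figure D5:**
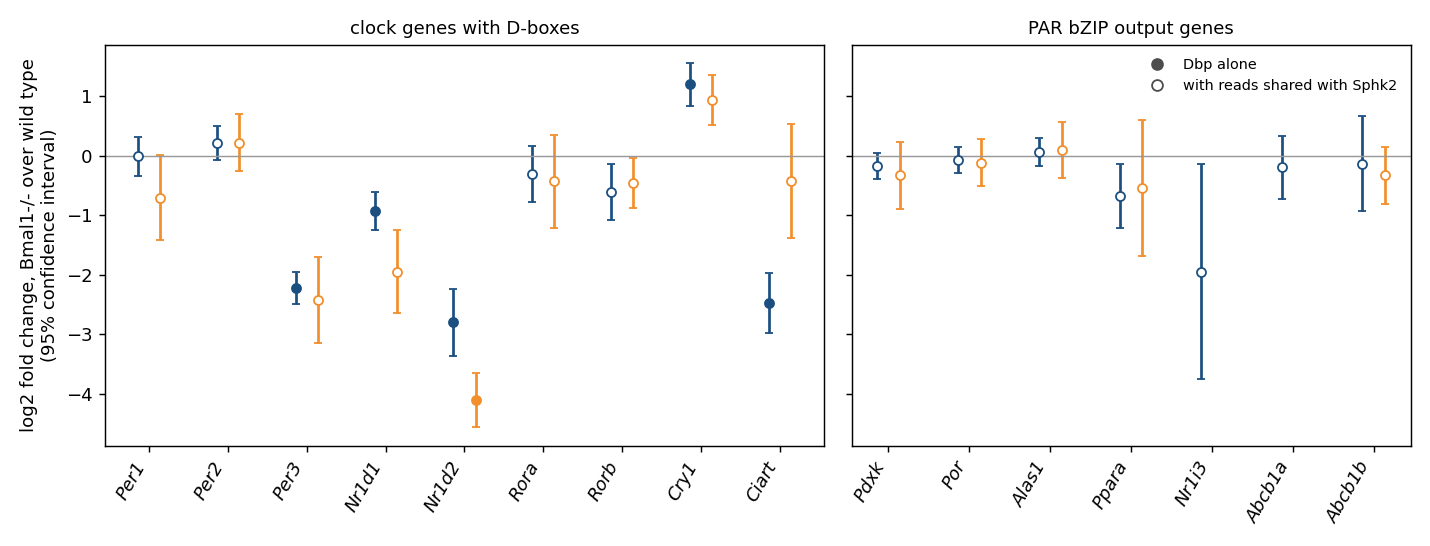
Log2 fold change, Bmal1-/- over wild type, with 95% confidence intervals, of clock genes with D-boxes (left) and of output genes of the PAR bZIP factors (right) that passed the filter on low counts; filled points have an edgeR adjusted p under 0.05. Filled points occur in the left panel alone, 5 in callosum and 1 (Nr1d2) in neurospheres. Dark blue points are callosum and orange points neurospheres, and open points did not pass. The key printed in the right panel (Dbp alone, with reads shared with Sphk2) belongs to the ratio plot and does not apply here.

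Among genes that act on the members, the 4 E-box activators held 1 call in callosum, Npas2, a partner of BMAL1 (log2 fold change 0.98 ± 0.11, SE, edgeR adjusted p = 0.00499), which stood at 2.02 ± 0.21 in neurospheres and did not pass (adjusted p = 0.091). It did pass there without Bmal1-/- replicate 1 (2.14, edgeR adjusted p = 0.0184), with no filter (0.0348), with DESeq2 (4.46e-13) and in the model of 11 libraries (0.000627). The callosum call of Npas2 ended without wild-type replicate 3 (edgeR adjusted p = 0.0709) and in the model of 11 libraries (0.0632). Of the 5 REV-ERB and ROR genes, which act on Nfil3, 2 fell in callosum (Nr1d1 and Nr1d2) and 1 in neurospheres (Nr1d2), and none rose. Nfil3 was called higher in the callosum, where both REV-ERB genes were called lower, and was not called in neurospheres, where Nr1d2 was. A call in 1 source alone is not a tested difference between sources. Both REV-ERB genes had lower log2 fold changes in neurospheres (Nr1d1 -1.95, Nr1d2 -4.11) than in callosum (Nr1d1 -0.93, Nr1d2 -2.80). For Nr1d1 the difference between sources was 1.00 ± 0.37 (SE, edgeR adjusted p = 0.999). The difference of Nr1d2 between sources was 1.29 ± 0.32 (SE, edgeR adjusted p = 0.547). Of the 8 E-box repressors, 2 fell (Per3 and Ciart) and 1 rose (Cry1) in callosum and none was called in neurospheres, with 2 of 8 at an unadjusted p under 0.05. Over all genes tested, 0.521% were called higher and 0.387% lower in callosum, and 0.00716% were called in neurospheres. At an unadjusted p under 0.05 stood 13.9% of all genes in callosum and 3.02% in neurospheres. The C/EBP genes, whose proteins bind motifs related to the D-box, held no call among 5 tested in either source, nor at an unadjusted p under 0.05, with a callosum median of -0.17 and with Cebpd at 0.49 and 0.95. The neurosphere value of Cebpd was 0.28 without Bmal1-/- replicate 1 and 1.47 without wild-type replicate 1.

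Likeness to each member was measured as Pearson's r of log2(CPM + 1) over the 11 libraries, each centred on the mean of its source, among 8963 genes with at least 5 CPM in both sources. These values share libraries and the genotype contrast and are given as a description. Per3 (r = 0.94), Tmem57 (0.94) and Plekho2 (0.93) were most like Dbp. Ccng1 (0.99), Upf2 (0.98) and Srpk2 (0.98) were most like Tef, and Uvrag (0.96), Cux1 (0.96) and Smarca2 (0.95) most like Hlf. Those most like Nfil3 were Ilvbl (0.94), Gm2a (0.94) and Apoe (0.94). Among the members, Tef and Hlf were alike (r = 0.95), and Dbp was nearer to Tef (0.81) than to Hlf (0.72), while Nfil3 ran against all 3 (-0.57 with Dbp, -0.31 with Tef, -0.32 with Hlf). Without Bmal1-/- neurosphere replicate 1, over 10 libraries, these became 0.90 for Tef and Hlf, 0.90 for Dbp and Tef and 0.80 for Dbp and Hlf.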

How the data were processed

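Each library's deposited file gives whole-number counts of reads for every gene symbol, once without strand and once for each strand. STAR 2.7.1a and mm10 come from the submitters' processing notes, and the gene models behind the counts were not given in the sources used here. Counts without strand were the main values, and the rows naming no gene (unmapped reads, 7.77% to 22.6%; reads outside genes, 8.55% to 16.6%; ambiguous reads, 0.772% to 1.40%) were left out. Reads that map to several places are listed at 0. The main test was edgeR 4.0.16 in R 4.3.3 (quasi-likelihood, robust, two-sided, TMM, filterByExpr, Benjamini-Hochberg over all genes tested, called at an adjusted p under 0.05), fitted per RNA source, with the interaction in 1 model of 11 libraries. The SE is the size of the log2 fold change over the square root of F. RLE, upper-quartile and no scaling, no filter, at least 1 CPM in 2 libraries, DESeq2 1.42.0, limma-voom 3.58.1, summed stranded counts, the replicate number as a block and each library left out were tried, and a striatal covariate was added after seeing the data. The fit was also run on simulated data with a single spread for all genes, taken from wild-type libraries. Spread in the real libraries was not so even, so that run is not used for any result here. Replicate pairs differed by 6.85 to 132 in chi-square per degree of freedom over genes, and each library was kept. The highest values, 132 and 130, were of the pairs with Bmal1-/- neurosphere replicate 1, against 13.4 for the other pair of that group. Pairs with wild-type neurosphere replicate 1 stood at 34.9 and 45.9, against 6.85 for the other wild-type pair. Exon lengths are from GENCODE M21, matched for 95.8% of symbols. Members and gene lists were chosen with earlier results of these data known. Named genes are the members, the called genes of each list or else examples, genes overlapping a member, and the 3 most alike by r. Sequences of proteins were not used here.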

Additional observations from a re-analysis of the deposited data

How the results depend on the processing

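Dbp kept its callosum call in all 16 alternatives (log2 fold change -2.92 to -2.66). Genes called in callosum numbered 129, and 224 with no filter, 330 with DESeq2, 33 in 1 model of 11 libraries and 27 to 192 with 1 library left out. In neurospheres 1 gene was called, and 5 with no filter, 34 with DESeq2, 2 with limma-voom, 19 in the 11-library model and 1 to 5 with 1 library left out. The interaction held 2, and 37 with DESeq2 and 1 to 10 with 1 library left out. Tef in callosum passed at -0.63 with library size alone, -0.57 with no filter and -0.56 with DESeq2, and Hlf at -0.76 with the striatal covariate. Nfil3 in callosum did not pass in the 11-library model (1.34). Dbp in neurospheres passed at -1.76 with DESeq2 and -1.76 in the 11-library model. Nfil3 in neurospheres ran from -0.056 to 0.66 with 1 library left out. Between wild-type sources Nfil3 did not pass with no filter (-1.20) or limma-voom (-0.94) and ran from -1.56 to -0.84 with 1 library left out. The interaction ran from -0.31 to 0.063 for Tef and from -0.15 to 0.28 for Hlf. The cause of these changes was not tested.

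Replicate numbers are shared between groups, and same-numbered libraries had deviations with r of 0.067 and 0.033 in callosum and 0.28, -0.012 and 0.34 in neurospheres. Libraries of different number reached 0.32 (wild-type replicate 2 with Bmal1-/- replicate 3, neurospheres). In callosum the deviations of the 2 Bmal1-/- libraries mirror each other (0.067 and -0.067 with wild-type replicate 1), so these values cannot decide pairing. The libraries were not taken as pairs, as not every same-numbered pair was over 0.1 and the labels give no shared source. That cutoff cannot settle the question, and the replicate 1 neurosphere libraries of both genotypes had some traits alike. In neurospheres the replicate block lowered the SE of Dbp from 0.28 to 0.20 and that of Nfil3 from 0.43 to 0.36, and neither passed. Whether same-numbered libraries share a source was not tested. With the replicate block, 2 genes were called in neurospheres and 1 in the interaction, Tef in callosum passed at -0.62, Per1 in callosum stood at 0.12 and Arntl at -0.043.

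Signs near 0 turned for Arntl in callosum (-0.0018 with upper-quartile scaling, -0.025 with library size alone, -0.13 to 0.19 with 1 library left out) and in neurospheres (0.044, 0.040, -0.10 to 0.072), and for Per1 in callosum (-0.14 to 0.12). With stranded counts summed, Sphk2 takes in the shared reads and turned to -0.15 in callosum and -0.31 in neurospheres. Low counts limit several listed genes in Bmal1-/- callosum, such as Nr1d2 (17 and 32 counts) and Ciart (43 and 27), and 2 libraries in that group limit every callosum interval.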
